A study of Mus musculus with 24 samples.

Results

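The 12 kidneys of this mouse series that had undergone the ischemia reperfusion injury called B-IRI in the labels, out of 24 libraries in all, were ordered by how strongly each was injured. Injury was read from Havcr1: the severity of a library is log2(Havcr1 normalized count + 1), and every other gene whose mean over these 12 libraries reached 50 normalized counts was related to it. The axis was thus chosen by measured values, those of Havcr1 itself. Gene and severity were both centred on the mean of their genotype, so that the question is which genes go up or down with injury among kidneys of the same genotype, and no genotype was compared with the other. The members are 6 Polg+/+ kidneys after B-IRI and 6 PolgD257A kidneys after B-IRI, and 12 sham kidneys of the same 2 genotypes serve as background. Polg encodes the catalytic subunit of the polymerase that copies mitochondrial DNA. PolgD257A is a version without working proofreading, carried in the germ line, and mice with it accumulate mitochondrial DNA mutations in all tissues. The sources used here do not say whether 1 or both copies carried it, or name any batch of surgery or sequencing. The study design names the Polg+/+ and PolgD257A mice as littermates, and the labels call each library a biological replicate. The tissue was kidney, and no source used here gives sex, age, the length of ischemia or when the kidneys were taken.

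Havcr1 encodes kidney injury molecule 1 (KIM-1), a phosphatidylserine receptor that proximal tubule cells hardly make at rest and put on their surface after injury, where it lets them take up dying neighbours. The proximal tubule is the segment most exposed to ischemia, because it reclaims most of the filtrate on a high supply of oxygen and burns fatty acids to do so. Injured tubule cells are known to lose their transporters, to flatten, to re-enter the cell cycle and to secrete inflammatory and matrix signals.

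Havcr1, on chromosome 11 from 46735080 to 46779578 on the plus strand (GRCm38, GENCODE M21), ranged from 112 to 198 normalized counts in the 12 sham kidneys. In Polg+/+ kidneys after B-IRI, replicates 1 to 6 had 5441, 18946, 17435, 7005, 12211 and 24888 normalized counts of Havcr1. In PolgD257A kidneys after B-IRI, replicates 1 to 6 had 36062, 35712, 33059, 34450, 25923 and 26493. Every injured kidney was therefore far above every sham kidney. Among the Polg+/+ kidneys replicates 1 and 4 were the least and replicate 6 the most injured by this measure, a 4.57-fold range, whereas the PolgD257A kidneys spanned 1.39-fold, with replicates 5 and 6 lowest. The Polg+/+ kidneys held 94.1% of the centred sum of squares of severity and the PolgD257A kidneys 5.91%. A slope fitted over all 12 libraries therefore rests mainly on the 6 Polg+/+ kidneys. These values define the gradient and are a description.

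**Figure D1:**
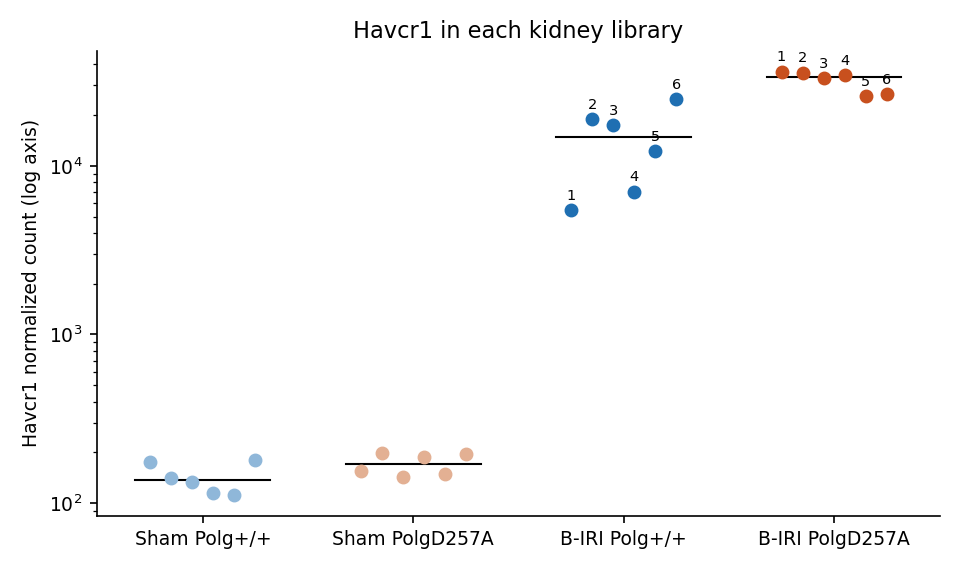
Havcr1 normalized counts (log axis) in each of the 24 kidney libraries. Each point is a library, the numbers are replicate numbers and the black lines are group medians. The 12 sham kidneys lie between 112 and 198, the 6 Polg+/+ kidneys after B-IRI between 5441 and 24888, and the 6 PolgD257A kidneys after B-IRI between 25923 and 36062.

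The 12 libraries held 18669806 to 26341004 gene-assigned reads each. No library measure passed a test against severity: for 6 measures (reads, genes detected, share of mitochondrial reads, share of mitochondrial rRNA, share of the 50 most abundant genes, size factor) the centred Pearson r lay between -0.50 and 0.05. The smallest adjusted p of these was 0.761 by exact two-sided permutation within genotype. Proximal tubule markers were abundant in every injured kidney (Lrp2 at least 19112 and Slc34a1 at least 36636 normalized counts), whereas 6 of 7 adrenal and 16 of 18 lymphocyte markers had a mean under 50. The defining adrenal gene Cyp11a1 was at 1.67 or less, and the defining lymphocyte genes Cd3e and Cd79a at 15.2 or less. Higher members of these lists were Star (54 to 96), Ptprc (123 to 287), which all white blood cells make, and the immunoglobulin gene Ighm (mean 66.7). The summed level of 8 urothelium markers, read as a check of the tissue piece, was highest in Polg+/+ replicate 1 at 1007, against 380 to 714 in the other Polg+/+ kidneys, 393 to 694 in PolgD257A and 254 to 858 in sham kidneys. Replicate 1 is the kidney on which most calls below depend, and the part of urothelium in them was not tested. Adipoq, an adipocyte marker, reached 35.9 in Polg+/+ replicate 6 and 4.32 or less in the other libraries. The Y chromosome genes Ddx3y, Eif2s3y, Uty and Kdm5d had means of 1215, 1438, 508 and 527 normalized counts over the 12 injured kidneys. The summed level of 5 sex-linked genes was 3518 to 4007 in Polg+/+ and 3342 to 3828 in PolgD257A kidneys after B-IRI, and 3423 to 4527 in sham kidneys.

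Sequences just upstream of transcription start are shown for 3 genes because the data put them close together on the gradient: Havcr1 itself, Tnfrsf12a, the gene whose values followed Havcr1 most closely, and Anxa2, the one gene among the 10 closest whose window holds a match to the AP-1 letters. They are the 250 bases before the start given by RefSeq (GRCm38.p6), 5′ to 3′ on the strand of the gene, with matches to TGANTCA, the letters searched for AP-1, in capitals. The letters read the same on both strands. For Havcr1 the most upstream of its 3 listed starts is shown (chr11:46739973-46740222, plus strand), Tnfrsf12a is at chr17:23677450-23677699 (minus strand) and Anxa2 at chr9:69453433-69453682 (plus strand).
Havcr1: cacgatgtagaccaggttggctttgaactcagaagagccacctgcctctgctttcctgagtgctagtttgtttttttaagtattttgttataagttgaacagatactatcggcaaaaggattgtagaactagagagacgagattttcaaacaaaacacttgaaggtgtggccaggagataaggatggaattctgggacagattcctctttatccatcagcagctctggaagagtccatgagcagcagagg
Tnfrsf12a: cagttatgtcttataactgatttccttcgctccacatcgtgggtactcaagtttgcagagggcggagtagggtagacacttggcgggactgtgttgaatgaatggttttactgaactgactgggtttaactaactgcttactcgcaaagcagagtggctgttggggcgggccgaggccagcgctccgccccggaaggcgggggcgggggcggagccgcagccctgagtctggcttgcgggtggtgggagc
Anxa2: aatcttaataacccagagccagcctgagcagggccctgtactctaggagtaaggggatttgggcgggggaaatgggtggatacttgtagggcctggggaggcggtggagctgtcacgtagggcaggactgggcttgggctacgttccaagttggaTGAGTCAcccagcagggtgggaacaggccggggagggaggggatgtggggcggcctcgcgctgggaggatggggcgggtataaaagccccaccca
The match in Anxa2 begins 95 bases before the start, and none of the 3 Havcr1 windows holds one. Over the genes that could be matched to a window, the letters were found in 18 of 166 genes that rose with severity (10.8%) and in 5 of 26 that fell (19.2%), against 537 of 9723 genes tested (5.52%) and 6.75% of all 32851 windows of this length. A match is a description of the sequence, and binding was not measured.

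Along this gradient 215 of 12878 genes rose with severity (1.67% of genes tested) and 40 fell (0.311%), together 1.98%, by limma with Benjamini-Hochberg adjusted p under 0.05. The unit of each slope below is the change in log2(normalized count + 1) for each 1-unit rise in log2 Havcr1, so that a slope of 1 means that the gene doubled whenever Havcr1 doubled. The median slope of all genes tested was 0.002. In the Polg+/+ kidneys alone 251 genes rose (1.95%) and 125 fell (0.971%), together 2.92%. In the PolgD257A kidneys alone, where Havcr1 hardly varied, limma called 0 genes (1326 genes had an unadjusted p under 0.05, edgeR called 0 and DESeq2 62). In the sham kidneys, fitted in the same way, limma called 0 of 12836 genes, 526 had an unadjusted p under 0.05, and edgeR and DESeq2 called 0 each. Centred severity spanned only -0.32 to 0.35 in sham kidneys, a narrow range like that of the PolgD257A kidneys, so these counts of 0 do not show that no gene follows Havcr1 without injury. Polg+/+ replicate 1, the kidney lowest in Havcr1, carries many of the calls. Without it 12 genes rose and 0 fell, and without Polg+/+ replicate 6, the highest in Havcr1 of its genotype, 30 rose and 2 fell. Other libraries that moved a count by over 1.5 times when left out were Polg+/+ replicates 2 (70 rising, 4 falling), 3 (135 and 21) and 4 (366 and 121), and PolgD257A replicates 5 (130 and 19), 2 (64 falling), 3 (66 falling) and 6 (21 falling). Of the 72 called genes that the text names or draws on, 8 were still called without Polg+/+ replicate 1, 20 without replicate 6 and 32 without replicate 2, and 0 changed sign in any of these. The genes still rising without replicate 1 include Tnfrsf12a, Steap1, Vtcn1, Nrcam, Anxa2, Anxa3 and Dcdc2a.

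Because the PolgD257A kidneys played no part in the fit to the Polg+/+ kidneys, they give a separate reading of direction. Of the 251 genes that rose in Polg+/+ kidneys alone, 243 (96.8%) also had a positive slope in PolgD257A kidneys, and of the 125 that fell 118 (94.4%) had a negative one. Over all genes tested 51.0% of slopes were positive in PolgD257A kidneys and 67.6% had the same sign in both. These are counts of genes, which are not independent of each other. The first principal component of the 12 centred libraries, with 29.5% of their variance, followed severity with r = 0.829 (exact permutation within genotype, p = 9.45e-05) and Spearman rho = 0.914 (exact permutation, p = 0.000486). Its r was 0.922 within Polg+/+ kidneys, 0.893 within PolgD257A kidneys and 0.782 without Polg+/+ replicates 1 and 4, the 2 libraries farthest from the median severity. The second component, with 17.6%, set PolgD257A replicates 2 and 3 (scores of -18.2 and -16.0) apart from the other libraries at one end, and PolgD257A replicate 4 (14.7, with the next at 6.85) at the other. Without PolgD257A replicates 2 and 3, a choice made after the data were seen, 411 genes rose and 151 fell.

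**Figure D2:**
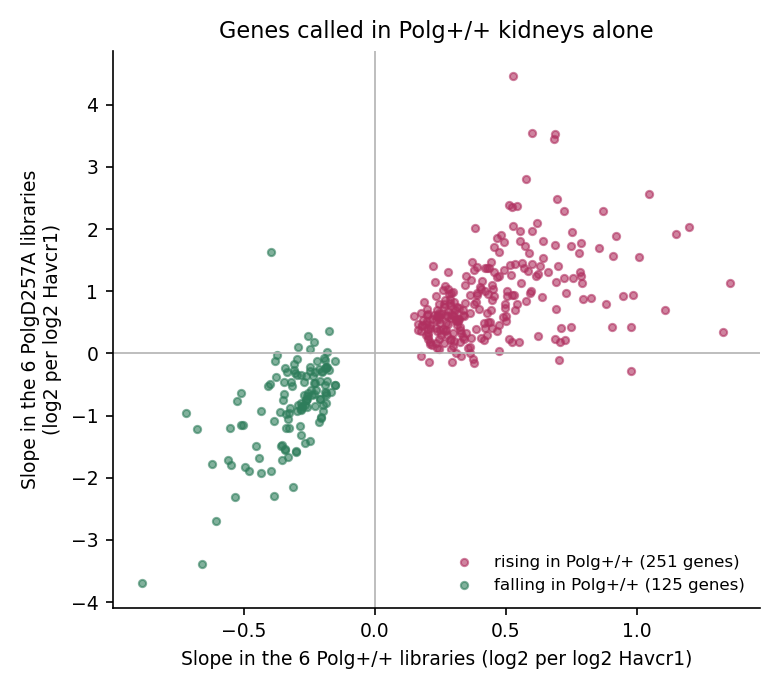
Slope on severity in the 6 PolgD257A kidneys (vertical axis) against the slope in the 6 Polg+/+ kidneys (horizontal axis), both in log2 per log2 unit of Havcr1, for the 376 genes called in Polg+/+ kidneys alone. Each point is a gene. Of the 251 rising genes 243 lie above 0 on the vertical axis, and of the 125 falling genes 118 lie below 0.

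**Figure D3:**
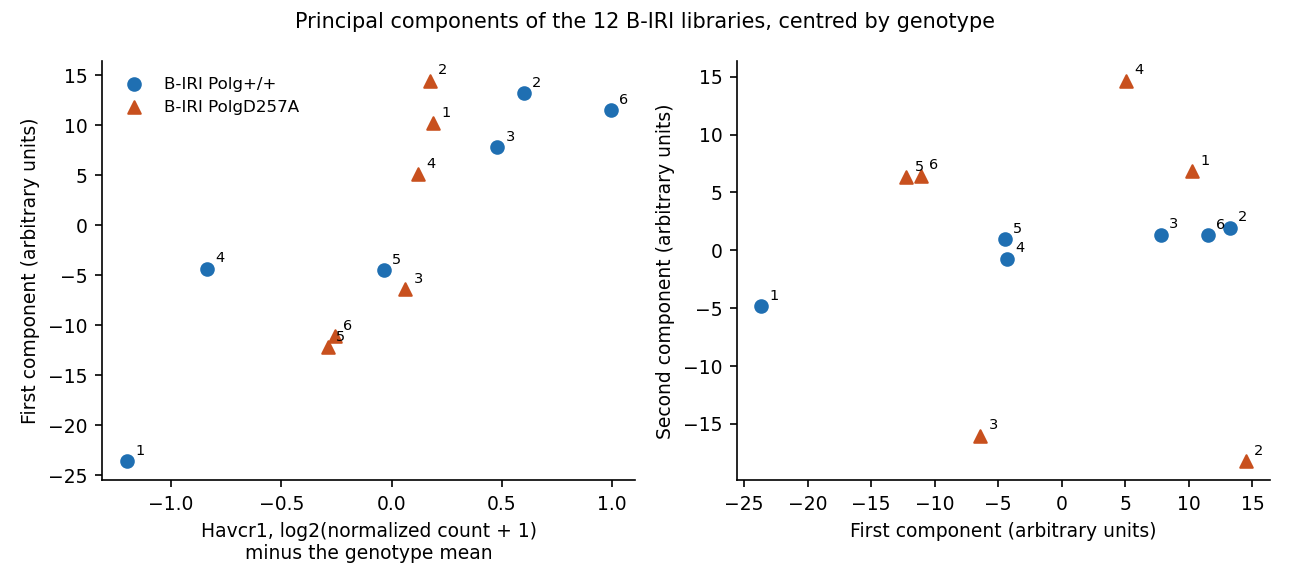
First principal component of the genotype-centred libraries against centred severity (left), and second against first component (right), in arbitrary units. Each point is a library with its replicate number. The first component rises with severity in both genotypes, and PolgD257A replicates 2, 3 and 4 have second-component scores of -18.2, -16.0 and 14.7.

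The gene most like Havcr1 was Tnfrsf12a, which encodes Fn14, the receptor for the cytokine TWEAK. Its normalized counts ran from 1523 through a median of 2499 to 3763 in Polg+/+ and from 4003 through 5128 to 5548 in PolgD257A kidneys. It was lowest in the kidneys lowest in Havcr1 (Polg+/+ replicate 1, PolgD257A replicate 5) and highest in those highest in Havcr1 (Polg+/+ replicate 6, PolgD257A replicate 1). The slope was 0.56 ± 0.05 (SE), adjusted p = 0.000277, with a centred r of 0.966 (exact permutation within genotype, p = 0.00012, adjusted over all genes 0.0201), rho of 0.857 (exact permutation, p = 0.00222) and r of 0.959 without the 2 farthest libraries. Within genotype r was 0.975 in Polg+/+ and 0.943 in PolgD257A kidneys. Steap1, a cell membrane protein of the STEAP family, ran from 174 through a median of 323 to 434 in Polg+/+ and from 486 through 666 to 746 in PolgD257A kidneys. It had r = 0.962 (exact permutation, p = 2.3e-05) and rho = 0.914 (exact permutation, p = 0.000486), and 0.992 and 0.966 within Polg+/+ and PolgD257A kidneys. It was lowest in Polg+/+ replicate 1 and PolgD257A replicate 5. Without the 2 farthest libraries its r was 0.870.

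Next in likeness, by centred r over the 12 libraries, came Vtcn1 (0.959), which encodes the immune checkpoint ligand B7-H4. The cell adhesion gene Nrcam (0.949) was also among the 10 closest. Relb (0.938), a subunit of NF-kB, Timd2 (0.935), the calcium-binding annexins Anxa3 (0.928) and Anxa2 (0.925), and Timp1 (0.928), an inhibitor of matrix metalloproteases, were among them too. Timd2 belongs to the same family as Havcr1 and lies beside it on chromosome 11 (46668960 to 46707061, minus strand), so reads shared between the 2 genes could affect its value. Its slope was 0.35 ± 0.05 (SE), adjusted p = 0.00337. All 10 rose by the test across all genes, and the fitted slopes in the PolgD257A kidneys were positive for all 10, from 0.10 (Timd2) to 1.89 (Timp1).

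**Figure D4:**
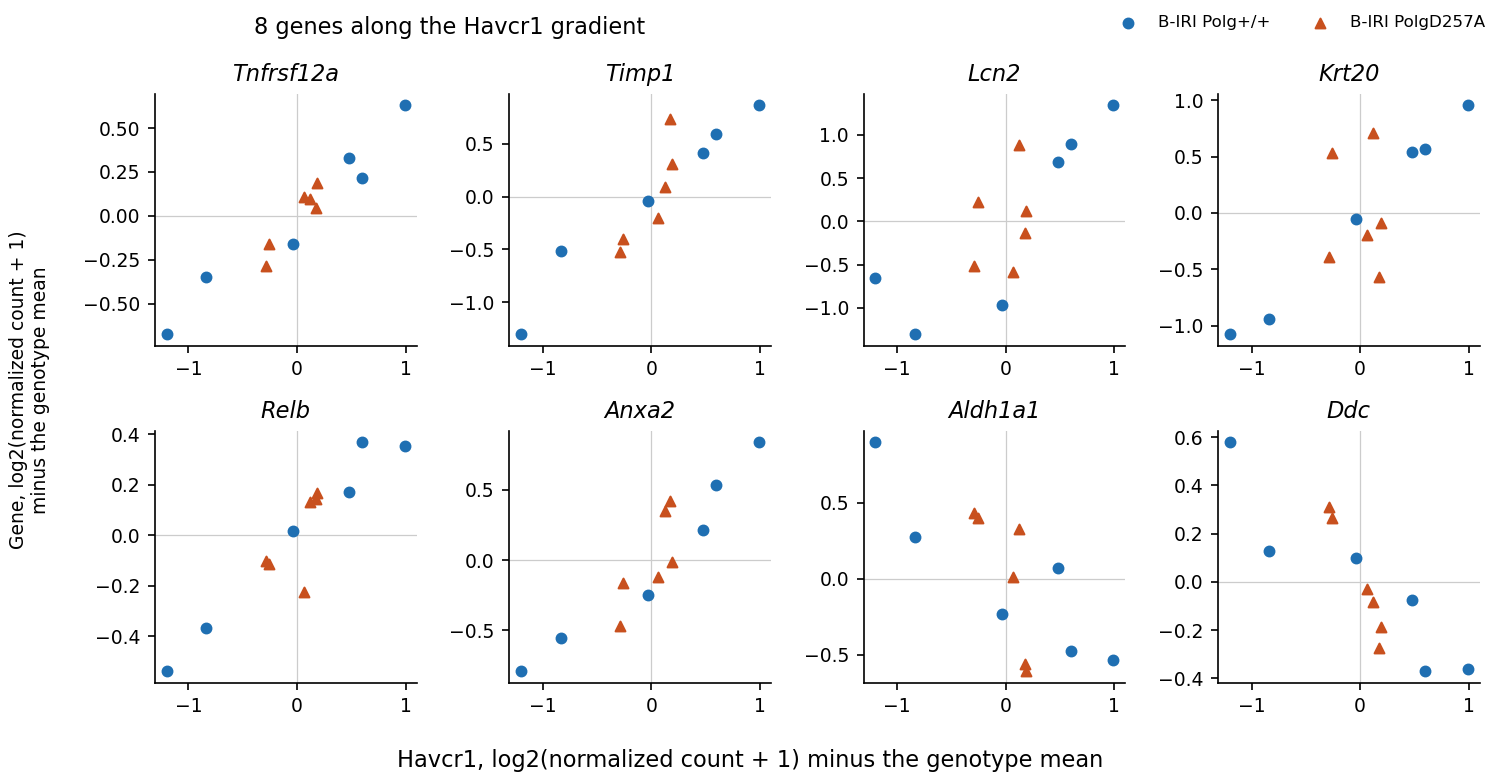
Level of 8 genes against Havcr1 in the 12 injured kidneys, both as log2(normalized count + 1) minus the mean of the genotype. Each point is a library, circles Polg+/+ and triangles PolgD257A. Tnfrsf12a, Timp1, Relb and Anxa2 rise along both sets of points, Lcn2 and Krt20 scatter widely in PolgD257A kidneys, where the slope of Krt20 was -0.29, and Aldh1a1 and Ddc fall.

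The largest rise belonged to Vgf, a secreted neuropeptide precursor. Its counts were low, from 4.32 through a median of 8.56 to 61.7 in Polg+/+ and from 58.8 through 94.3 to 308 in PolgD257A kidneys, with 2.11 or less in sham kidneys. The slope was 1.47 ± 0.33 (SE), adjusted p = 0.0413. Polg+/+ replicates 2 and 6, both high in Havcr1, held most of its signal in that genotype, and PolgD257A replicate 4 stood at 308. Flnc, the actin cross-linker filamin C, had a slope of 1.27 ± 0.15 (SE), adjusted p = 0.00129. Flnc ran from 55.3 through a median of 273 to 424 in Polg+/+ and from 544 through 619 to 1013 in PolgD257A kidneys. Hk2, the hexokinase isoform induced in growing and hypoxic cells, had a slope of 1.25 ± 0.18 (SE), adjusted p = 0.00425 and Il11, a profibrotic cytokine of the IL-6 family, 1.14 ± 0.20 (SE), adjusted p = 0.0137. Hk2 was at 11.2 in Polg+/+ replicate 1, below all 12 sham kidneys, and at 109 in replicate 6.

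Other large rises were in secreted or cell-surface products. Cxcl2, a chemokine that attracts neutrophils, had a slope of 1.04 ± 0.17 (SE), adjusted p = 0.00923. Slc34a2, the phosphate transporter of lung and gut that is not the main renal form, had 0.98 ± 0.21 (SE), adjusted p = 0.0323, and the IL-1 receptor antagonist Il1rn 0.96 ± 0.14 (SE), adjusted p = 0.00475. Serpina10, an inhibitor of coagulation factor X, had 0.95 ± 0.16 (SE), adjusted p = 0.0127, and Lif, another IL-6 family cytokine, 0.95 ± 0.20 (SE), adjusted p = 0.0325. All of these were higher in every injured kidney than in any sham kidney. Serpina10 ran from 228 through a median of 508 to 857 in Polg+/+ and from 634 through 772 to 2003 in PolgD257A kidneys, with PolgD257A replicate 2 alone at its top.

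Falls were smaller. Prlr, the prolactin receptor, had a slope of -0.74 ± 0.13 (SE), adjusted p = 0.0136 and ran from 79.2 through a median of 139 to 242 in Polg+/+ and from 101 through 132 to 216 in PolgD257A kidneys. It was highest in Polg+/+ replicates 4 and 1, the pair lowest in Havcr1, and lowest in replicate 6. Aldh1a1 and Retsat, both enzymes of retinoid metabolism, had slopes of -0.63 ± 0.14 (SE), adjusted p = 0.0414 and -0.51 ± 0.11 (SE), adjusted p = 0.0302. Aldh1a1 ran from 406 through a median of 559.7 to 1097 in Polg+/+ and from 382 through 659 to 788 in PolgD257A kidneys against 96.6 to 196 in sham kidneys, so it lay above sham in every injured kidney and was nevertheless lowest where Havcr1 was highest in Polg+/+ kidneys. Ddc, which makes dopamine from its precursor in the proximal tubule, had a slope of -0.42 ± 0.07 (SE), adjusted p = 0.00923. Its counts ran from 1340 through a median of 1753 to 2592 in Polg+/+ and from 1259 through 1465 to 1889 in PolgD257A kidneys. Within the 6 PolgD257A kidneys r was -0.979 (exact permutation, unadjusted p = 0.00278), and its slope there did not pass across all genes (limma, adjusted p = 0.282).

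Further falls were in transporters and regulators. The monocarboxylate carrier Slc16a9 (-0.39 ± 0.08 SE, adjusted p = 0.0246) and the nucleoside transporter Slc28a1 (-0.37 ± 0.08 SE, adjusted p = 0.0413) fell. Fgf9, a growth factor of kidney development, had -0.38 ± 0.07 (SE), adjusted p = 0.0183. Nlrp6, a sensor of the inflammasome family, had -0.37 ± 0.08 (SE), adjusted p = 0.0368. Polg2, the accessory subunit of the mitochondrial DNA polymerase and so the partner of Polg, had -0.36 ± 0.07 (SE), adjusted p = 0.0252 and ran from 90.9 through a median of 130.3 to 174 in Polg+/+ and from 102 through 115 to 124 in PolgD257A kidneys. In Polg+/+ kidneys its slope was -0.38, with the highest value in replicate 1 and the lowest in replicate 6, and in PolgD257A kidneys -0.13. Polg2 overlaps Milr1 on the other strand, and no source used here states whether strand was kept in counting. Prob1, Rab11fip4 (a regulator of recycling endosomes) and Rogdi fell by 0.36, 0.34 and 0.33 per unit. By likeness rather than size, the most opposite gene was Mtmr4, a lipid phosphatase of endosomes, with r = -0.921 (exact permutation, p = 0.00232, adjusted over all genes 0.0593), rho = -0.800 (exact permutation, p = 0.00624) and r = -0.811 without the 2 farthest libraries. Mtmr4 ran narrowly, from 1203 through a median of 1371 to 1544 in Polg+/+ and from 1165 through 1204 to 1256 in PolgD257A kidneys, and its slope was -0.16 ± 0.03 (SE), adjusted p = 0.0319. Also among the 10 most opposite were Lmo7, Hoxa5, Gzf1, Kank1, Polg2, Rab11fip4, Amt and Npr2, with centred r from -0.900 to -0.883. Of these, Gzf1 and Kank1 did not pass the test across all genes.

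Gene groups were read as counts of members called, beside the 1.67% rising and 0.311% falling of all genes tested. Of 9 measured genes for secreted injury markers, 4 rose and 0 fell, with a median slope of 0.52 (0 of 9 called without Polg+/+ replicate 1). Lcn2, which encodes NGAL, an iron-siderophore carrier used as an injury marker in urine, had a slope of 1.08 ± 0.24 (SE), adjusted p = 0.0362 and ran from 589 through a median of 1632 to 3709 in Polg+/+ and from 4486 through 6722 to 12373 in PolgD257A kidneys. In Polg+/+ kidneys Lcn2 was lowest in replicates 4 and 5 and highest in replicate 6. In PolgD257A kidneys its slope was 0.69 with r = 0.276 (exact permutation, p = 0.586), and replicate 4 was highest at 12373. Spp1, the phosphoprotein osteopontin, had a slope of 0.82 ± 0.15 (SE), adjusted p = 0.0161, Timp1 0.98 ± 0.11 (SE), adjusted p = 0.00129 and the stress cytokine Gdf15 0.50 ± 0.07 (SE), adjusted p = 0.00416. Clu, which encodes the chaperone clusterin, had a slope of 0.66 and did not pass (adjusted p = 0.0704). The 2 markers Lcn2 and Havcr1 therefore did not order the PolgD257A kidneys alike. With Lcn2 in place of Havcr1 as the measure of severity, 74 genes rose and 19 fell, and 46 of these calls were shared with the 255 by Havcr1.

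Genes of dedifferentiated and failed-repair tubule cells rose in 6 of 22 cases and fell in 0, with a median slope of 0.38. Besides Tnfrsf12a these were Plaur (the urokinase receptor, 0.69 ± 0.10 SE, adjusted p = 0.00444), Dcdc2a (a microtubule-binding protein, 0.50 ± 0.08 SE, adjusted p = 0.0092), Krt20, Krt8 and Sox9. Krt20 and Krt8 are epithelial keratins and Sox9 is a transcription factor of regenerating tubule. Krt20 ran from 414 through a median of 1061 to 1702 in Polg+/+ and from 2297 through 3101 to 5594 in PolgD257A kidneys against at most 28.4 in sham kidneys. It tracked Havcr1 closely in Polg+/+ kidneys (slope 0.98, r = 0.996, exact permutation p = 0.00139, the smallest p that 6 libraries allow) and not in PolgD257A kidneys (slope -0.29, r = -0.121, exact permutation p = 0.846). The pooled relation of Krt20 had r = 0.811 (exact permutation p = 0.00939, adjusted over all genes 0.101) and rho = 0.514 (exact permutation p = 0.118). Without the 2 farthest libraries, Polg+/+ replicates 1 and 4, its centred r was 0.387. Leaving them out also gives the PolgD257A kidneys more weight, so this value does not show which libraries carry the relation. Krt7 (slope 0.06, adjusted p = 0.722) and Cd24a (slope 0.38, adjusted p = 0.103) did not pass.

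Of 22 actin and intermediate filament genes 9 rose and 0 fell, with a median slope of 0.22. With Flnc these included Tubb6 (0.51 ± 0.07 SE, adjusted p = 0.00455), a tubulin grouped with them, the tropomyosin Tpm4 (0.42 ± 0.07 SE, adjusted p = 0.00923) and the actin-binding Tagln2 (0.27 ± 0.05 SE, adjusted p = 0.0161). The most abundant actins Actb (slope 0.06, adjusted p = 0.68) and Actg1 (slope -0.02, adjusted p = 0.927) did not pass. Of 14 annexin and S100 genes 5 rose and 0 fell, with a median of 0.15, among them S100a6 (0.65 ± 0.10 SE, adjusted p = 0.00923) and S100a11 (0.30 ± 0.07 SE, adjusted p = 0.0362), both calcium-binding proteins. Anxa2 ran from 1804 through a median of 3128 to 5594 in Polg+/+ and from 4446 through 5875 to 8245 in PolgD257A kidneys, lowest in Polg+/+ replicate 1 and PolgD257A replicate 5. Of 13 genes known as targets of the YAP coactivator 2 rose, Ankrd1 and the coagulation initiator F3, and 0 fell. For this list 0 of 13 were called without Polg+/+ replicate 1 or without replicate 6. Its slopes were positive for 12 of 13 in Polg+/+ kidneys alone and 7 of 13 in PolgD257A kidneys alone (median 0.0006). Without Polg+/+ replicate 1 the calls fell to 0 of 22 for actin and filament genes, 2 of 14 for annexins and S100 and 2 of 22 for dedifferentiation, while the medians were 0.22, 0.18 and 0.39.

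The cytokine, chemokine and NF-kB group had the most calls: 13 of 27 measured members rose and 0 fell, with a median slope of 0.32. All 27 had positive slopes in Polg+/+ kidneys alone and all 27 in PolgD257A kidneys alone. NF-kB subunits of the non-canonical branch were among them, Relb (0.44 ± 0.06 SE, adjusted p = 0.00358) and Nfkb2 (0.32 ± 0.05 SE, adjusted p = 0.0127). Relb ran from 156 through a median of 243 to 294 in Polg+/+ and from 389 through 461 to 511 in PolgD257A kidneys, lowest in Polg+/+ replicate 1 and PolgD257A replicate 3. Besides Il11 and Lif, the cytokine receptor Osmr, the transcription factor Stat3 and the feedback inhibitor Socs3 (0.81 ± 0.12 SE, adjusted p = 0.00444) rose, whereas the receptor subunit Il6st (slope 0.12, adjusted p = 0.251) did not pass. Of the chemokines and growth factors Cxcl1, Cxcl2, Cxcl10, Csf1 and Il34 also rose, and so did the NF-kB regulator Nfkbiz. The members beyond the first 4 by p were named after their values were seen. The calls depended on the ends of the gradient: 0 of 28 without Polg+/+ replicate 1 (27 of 28 slopes positive, median 0.25) and 1 of 28 without replicate 6.

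Among 21 immediate early genes, the first to be transcribed after a stimulus, 3 rose and 0 fell, with a median slope of 0.29 (0 of 21 called without Polg+/+ replicate 1). These were the small Maf protein Maff (0.46 ± 0.07 SE, adjusted p = 0.00811), the AP-1 subunit Junb (0.48 ± 0.09 SE, adjusted p = 0.0164) and Klf6 (0.44 ± 0.10 SE, adjusted p = 0.0459). Myc (slope 0.45, adjusted p = 0.0551) and Jun (slope 0.30, adjusted p = 0.12) did not pass. Of 23 interferon response genes Irf1 rose (0.33 ± 0.07 SE, adjusted p = 0.0325) and 0 fell. Among genes for p53 targets and arrest Cdkn1a, the cell cycle inhibitor p21, rose (0.51 ± 0.12 SE, adjusted p = 0.0449). Of 17 heat shock genes the small chaperones Hspb1 (0.54 ± 0.11 SE, adjusted p = 0.0219) and Cryab (0.39 ± 0.08 SE, adjusted p = 0.0253) rose, while the major chaperones Hspa8 (slope 0.08) and Hsp90ab1 (slope -0.01) did not pass. Of 18 cell death genes Mlkl, the executor of necroptosis (0.52 ± 0.10 SE, adjusted p = 0.0176), and Bcl3, an atypical regulator of NF-kB (0.51 ± 0.07 SE, adjusted p = 0.00444), rose. Of 25 genes of the integrated stress response, 18 ER chaperones and 21 genes of NRF2 and iron handling, 0 were called.

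DNA replication genes rose in 11 of 27 cases and fell in 0, with a median slope of 0.34. Chaf1b, a chromatin assembly factor, had 0.68 ± 0.12 (SE), adjusted p = 0.015 and ran from 70.8 through a median of 120.1 to 188 in Polg+/+ and from 123 through 154 to 279.8 in PolgD257A kidneys. It was lowest in Polg+/+ replicate 1 and PolgD257A replicate 5 and highest in Polg+/+ replicate 6 and PolgD257A replicate 2. Uhrf1, which maintains DNA methylation at replication, had 0.68 ± 0.13 (SE), adjusted p = 0.0186, the polymerase subunit Pola1 0.46 ± 0.08 (SE), adjusted p = 0.0163 and the ligase Lig1 0.49 ± 0.09 (SE), adjusted p = 0.0199. Mcm3, Mcm4, Mcm5 and Mcm7, subunits of the replicative helicase, Cdt1, Pold1 and Rrm2 also rose, and Pcna (slope 0.32, adjusted p = 0.0838) did not pass. Of 14 mitosis genes 0 were called, although all 14 slopes were positive in each genotype and the median was 0.42. Top2a, needed to part chromosomes, had a median of 158 and a highest value of 262 in Polg+/+ kidneys and ran from 89.0 through 113 to 468 in PolgD257A kidneys, with PolgD257A replicate 2 far above the rest, and its slope was 0.71 ± 0.27 (SE), adjusted p = 0.187. In number of calls replication genes were sensitive to the ends of the gradient too, with 0 of 27 without Polg+/+ replicate 1 and 1 of 27 without replicate 6, at medians of 0.45 and 0.35.

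Matrix and immune cell markers belong largely to other cell types than the tubule. Of 24 fibroblast and matrix genes Tnc (tenascin C, 0.84 ± 0.17 SE, adjusted p = 0.0246) and Loxl2 (a collagen cross-linker, 0.47 ± 0.10 SE, adjusted p = 0.0311) rose and 0 fell. All 24 slopes were positive in Polg+/+ kidneys and 22 in PolgD257A kidneys, with a pooled median of 0.27 (0 of 24 called without Polg+/+ replicate 1). The summed level of the 27 listed genes ranged from 26127 to 45030 in Polg+/+ and from 45273 to 64250 in PolgD257A kidneys, against 20092 to 23936 in sham. Col3a1, a fibrillar collagen, had a slope of 0.59 and did not pass (adjusted p = 0.0529). Of 20 macrophage and monocyte genes only Cd14 (0.50 ± 0.11 SE, adjusted p = 0.0397), which tubule cells can also make, rose, and the median was 0.36. The summed macrophage level was 5254 to 8336 in Polg+/+ and 6582 to 9546 in PolgD257A kidneys, against 8053 to 10240 in sham. Neutrophil and lymphocyte genes were scarce, with summed levels of 44 to 596 and 358 to 646 over the 12 kidneys, and 1 and 2 of their members could be tested. In whole kidney a change in the number of cells of a type and a change in RNA per cell cannot be told apart, and the part of these other cells in the genes that rose was not tested.

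Most genes of the healthy proximal tubule had negative slopes and did not pass. Of 38 transport and brush border genes 0 were called in either direction, with a median slope of -0.14 and 15 members with a negative slope at an unadjusted p under 0.05. Lrp2, the endocytic receptor megalin, had a slope of -0.27 ± 0.07 (SE), adjusted p = 0.089 and ran from 28806 through a median of 37319 to 42059 in Polg+/+ and from 19112 through 21909 to 28783 in PolgD257A kidneys. The fructose transporter Slc2a5 (-0.43, adjusted p = 0.0854), the brush border peptidase Dpp4 (-0.19, adjusted p = 0.0836) and the phosphate transporter Slc34a1 (-0.13, adjusted p = 0.556) had negative slopes too and did not pass. In Polg+/+ kidneys alone 8 of 38 fell and 3 of 38 slopes were positive, against 11 of 38 positive in PolgD257A kidneys alone. The slope of Hnf4a, a transcription factor of the proximal tubule, was -0.18 (adjusted p = 0.113). Of 31 genes of proximal tubule metabolism 0 were called, with a median of -0.12. Of these 31 slopes 3 were positive in Polg+/+ kidneys alone and 15 in PolgD257A kidneys alone. Hpd, an enzyme of tyrosine breakdown, had the steepest fitted slope of those named, -1.05 ± 0.35 (SE), adjusted p = 0.141, and ran from 146 through a median of 249 to 711 in Polg+/+ and from 24.5 through 156 to 284 in PolgD257A kidneys. In Polg+/+ kidneys alone Hpd fell (limma, slope -0.89, adjusted p = 0.0103).

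Fatty acid oxidation genes, which fuel the proximal tubule, had negative slopes with few exceptions and no call. Of 27 genes 0 passed, 18 had negative slopes at an unadjusted p under 0.05, and the median was -0.23. In each genotype alone 1 of 27 slopes was positive, with medians of -0.18 in Polg+/+ and -0.76 in PolgD257A kidneys. Acaa2, a thiolase of the mitochondrial pathway, had -0.25 ± 0.07 (SE), adjusted p = 0.0832, and Crot, which shuttles shortened fatty acids out of peroxisomes, -0.24 ± 0.07 (SE), adjusted p = 0.0861. Ehhadh, a peroxisomal enzyme, ran from 15004 through a median of 17684 to 32838 in Polg+/+ and from 10835 through 18390 to 29392 in PolgD257A kidneys, highest in Polg+/+ replicate 1 in that genotype and lowest in PolgD257A replicates 1 and 2 in the other. Without PolgD257A replicates 2 and 3 a total of 4 of the 27 fell. Without Polg+/+ replicate 1 the median was -0.11 and 3 of 27 slopes were positive.

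Mitochondrial and nucleotide genes were of interest because the series title names nucleotide biosynthesis. Of 13 mitochondrially encoded mRNAs 0 were called, with a median of -0.04 (0.02 without Polg+/+ replicate 1), and of 24 genes of the TCA cycle 0, with -0.06. Of 46 nuclear subunits of the respiratory chain 0 were called. Their slopes had opposite signs by genotype, with 1 of 46 positive in Polg+/+ kidneys (median -0.05) and 42 of 46 positive in PolgD257A kidneys (median 0.25), and that difference was not tested. The pooled direction depended on 1 library and on scaling: 7 of 46 slopes were positive over all 12 kidneys (median -0.03), 32 of 46 without Polg+/+ replicate 1 (median 0.02) and 22 of 46 with quantile normalization. Of 13 genes for de novo purine synthesis 0 were called, with a median of 0.01. Of 14 listed for de novo pyrimidine synthesis 2 rose and 0 fell, with 0 of 14 called without Polg+/+ replicate 1 or without replicate 6. Ctps, the CTP synthase, had 0.28 ± 0.05 (SE), adjusted p = 0.0186. Rrm2, the ribonucleotide reductase subunit made in S phase, had 0.81 ± 0.18 (SE), adjusted p = 0.0412. It is not specific to pyrimidines and was also counted among the DNA replication genes, so these counts do not set pyrimidine against purine synthesis. Rrm2 ran from 127 through a median of 252 to 409 in Polg+/+ and from 179 through 258 to 661 in PolgD257A kidneys. Of 22 genes of serine and folate one-carbon metabolism Amt, the aminomethyltransferase of glycine cleavage, fell (-0.27 ± 0.05 SE, adjusted p = 0.015) and ran from 1124 through a median of 1310 to 1727 in Polg+/+ and from 898 through 999 to 1083 in PolgD257A kidneys. Gldc, of the same complex, had a slope of -0.29 (adjusted p = 0.0829). Of 35 cytosolic ribosomal protein genes 0 were called, although all 35 slopes were positive in each genotype, with a median of 0.11.

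Other nephron segments and cell types gave 0 calls. This holds for 16 thick ascending limb, 13 distal convoluted tubule, 15 principal cell, 14 intercalated cell, 14 podocyte and 18 endothelial genes. The medians lay between -0.12 and 0.06. The highest, for endothelium (15 of 18 slopes positive), turned to -0.07 with 3 of 18 positive without Polg+/+ replicate 1. In the thick ascending limb Egf, the growth factor of that segment and the early distal tubule, ran from 9953 through a median of 14462 to 18852 in Polg+/+ and from 1378 through 4292 to 6080 in PolgD257A kidneys. Its slope was -0.52 ± 0.26 (SE), adjusted p = 0.316. In Polg+/+ kidneys alone 2 of the 16 thick ascending limb genes fell, Egf (-0.44, adjusted p = 0.0435) and the phosphatase inhibitor Ppp1r1a (-0.21, adjusted p = 0.025). In PolgD257A kidneys 0 of 16 slopes were positive (median -0.77) and 0 were called. In glycolysis (15 genes, median -0.004, and 0.02 without Polg+/+ replicate 1 or with quantile normalization) 0 were called, and among 17 targets of the hypoxia-inducible factors Hk2 was called and 16 were not.

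**Figure D5:**
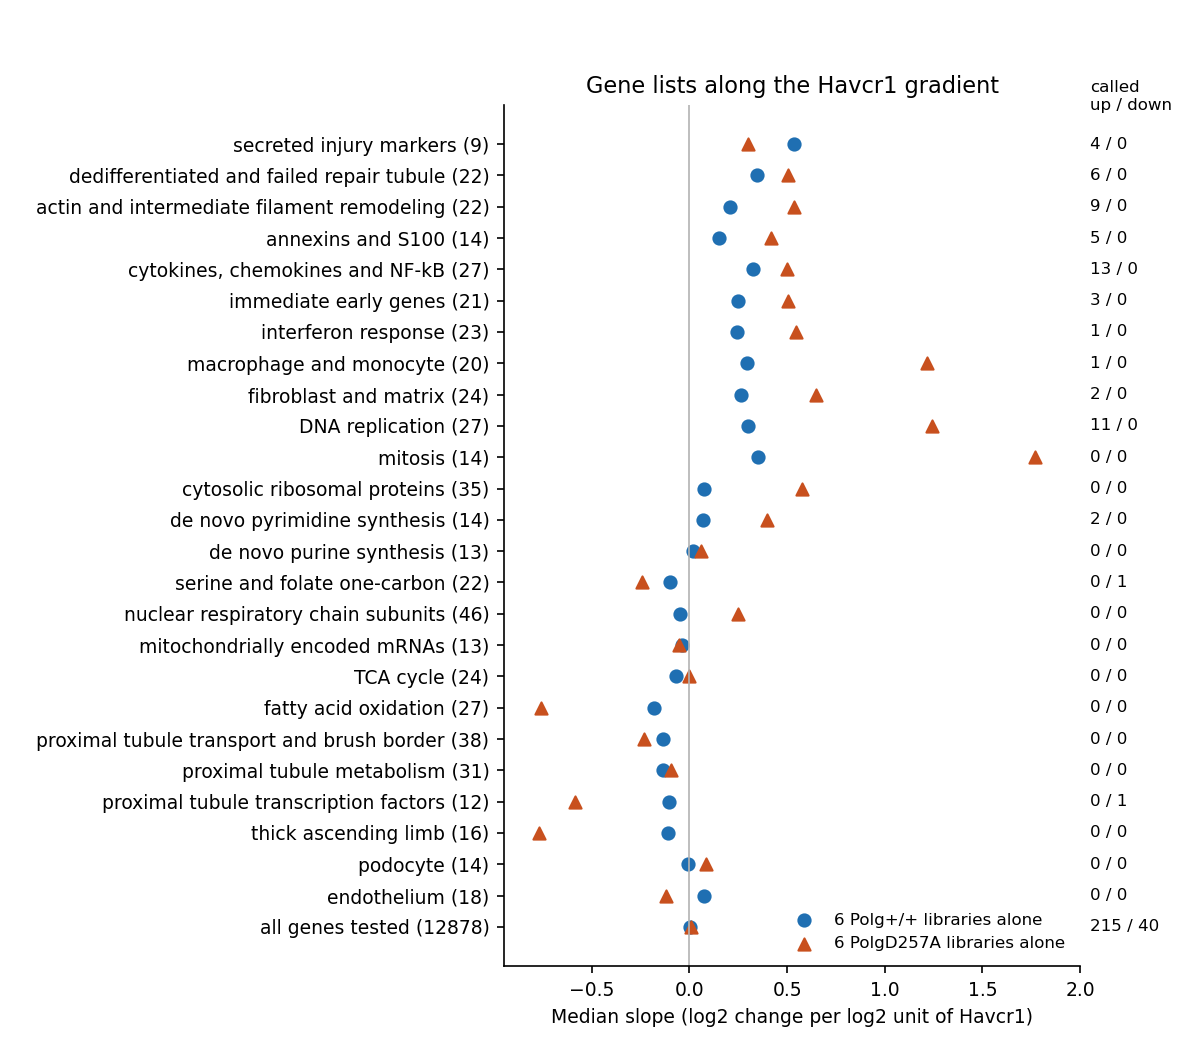
Median slope on severity of 25 gene lists and of all genes tested (horizontal axis, log2 per log2 unit of Havcr1), fitted in the 6 Polg+/+ kidneys alone (circles) and in the 6 PolgD257A kidneys alone (triangles). Numbers in brackets are genes tested and the right column gives genes called rising and falling over all 12 kidneys. Injury, cytoskeletal, cytokine and replication lists lie above 0 in both genotypes and fatty acid oxidation below 0 in both.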

How the data were processed

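RNA was extracted from 24 kidneys with RNeasy kits, and the NEBNext Ultra II kit for RNA was used for libraries, per the labels' protocols. FastQC, STAR, SAMtools, featureCounts and DESeq2 with GRCm38.p6 are named, without versions, per the submitters' processing notes. The deposited signal values are gene counts that the authors divided by 1 size factor per library (normalized counts). After multiplication by that factor 100% of values were whole to within 0.001. Depths and count models used the reads recovered in this way. Column names with Ctrl, Mut and SurgBIR were read as Polg+/+, PolgD257A and B-IRI, an inference from the names on which every comparison rests. Strandedness is not given in the sources used here. Genes such as Polg2, Timp1, Hk2, Slc34a2, Nfkb2, Junb, Cdkn1a, Cryab, Lig1, Tnc, Aldh1a1, Retsat, Ddc, Slc16a9, Fgf9, Slc28a1 and Anxa2 overlap another gene on the opposite strand and are uncertain for that reason.

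Slopes were fitted with limma 3.58.1 in R 4.3.3 (empirical Bayes with a trend). The response was log2(normalized count + 1), the terms were genotype and 1 slope on severity, and tests were two-sided, with Benjamini-Hochberg adjustment over all 12878 genes with a mean of at least 50 and a threshold of 0.05. The pseudocount of 1 understates slopes of low genes. Severity is itself 1 gene measured in the same libraries. Centred r and rho were tested by exact permutation within genotype (518400 arrangements), with p adjusted over all genes tested and not, as first planned, over the genes described. Alternatives were other pseudocounts and filters, TMM and quantile scaling, count models on recovered reads (DESeq2 1.42.0, edgeR 4.0.16), library weights, robust empirical Bayes, depth as a covariate, the replicate number as a block, each genotype alone, other measures of severity, ranks, and leaving out libraries.

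On counts simulated for the severity slope in 12878 genes, limma recovered 18 of 68 genes with a slope of 0.25, 53 of 66 with 0.5 and 65 of 66 with 1, with 12 false calls. The members and the 49 gene lists (936 of 938 entries found) were chosen with earlier results of these data known. Named genes are the 12 largest rises and 12 largest falls called with the same sign in each genotype, the 10 genes most like and most opposite to Havcr1 by centred r, up to 4 members of each list by p, called members moving against a list, 2 abundant members not called, and Lcn2, leaving out predicted genes and pseudogenes. Other genes were named after their values were seen, and some genes that the rule names are not reported here. List entries are described by counts and medians, with no test of a list. Positions are those of GENCODE M21 on GRCm38, and promoter windows those of RefSeq. Other steps used pandas 2.3.3, NumPy 2.4.6 and Matplotlib 3.10.9 under Python 3.11.15. The authors' deposited table of their own comparison was not used.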

Additional observations from a re-analysis of the deposited data

Results flagged for a closer look

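In 158 groups of 6 values (73 genes and 6 library measures in each genotype after B-IRI), 7 had a highest library far from the other 5, and 0 a lowest. About 1 in 20 such groups is picked out by chance. In PolgD257A kidneys replicate 4 was highest for Vgf (308 normalized counts against 58.8 to 95.5 in the others) and for Flnc (1013 against 544 to 676). In the same genotype replicate 2 was highest for Serpina10 (2003 against 634 to 942), for the chromatin assembly factor Chaf1b (280 against 123 to 177) and for the ribonucleotide reductase subunit Rrm2 (661 against 179 to 345). In Polg+/+ kidneys replicate 1, the one lowest in Havcr1, was highest for Retsat (8447 against 3534 to 5249) and Rogdi (1988 against 1107 to 1393).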

How the results depend on the processing

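Against 215 rising and 40 falling genes, falling genes numbered 22 with no filter on low genes, rising genes 135 with quantile normalization, and DESeq2 on recovered reads gave 407 and 193. Library weights gave 406 and 151, and the Polg+/+ kidneys alone 125 falling. The PolgD257A kidneys alone gave 0 and 0. Exact permutation, added after the data were seen, gave 133 falling, and leaving out both PolgD257A libraries apart on the second component, added likewise, 411 and 151. Other measures of severity gave 74 and 19 (Lcn2), 20 and 0 (Krt20), 343 and 162 (the mean of the dedifferentiated tubule list), and 513 and 370 (ranks within genotype). Without the 2 libraries farthest from the median severity 5 rose and 0 fell. Leaving out each library in turn gave 12 to 366 rising and 0 to 121 falling. The cause of these shifts was not tested. The counts under the other pseudocounts and filters, TMM, edgeR, robust empirical Bayes and depth as a covariate lay within 1.5 times of 215 and 40. Same-numbered libraries of both genotypes did not deviate together (correlations from -0.52 to 0.31, with 1 of 6 best matched by its own number). These correlations cannot show whether same-numbered libraries shared a batch of surgery or sequencing, because differences in severity also enter them. With the replicate number as a block 114 genes rose and 35 fell, and 103 of the 255 calls were shared. In sham kidneys 6 genes fell along Havcr1 with this block, against 0 under the other alternatives run there. The slope of Krt20 was -0.29 in PolgD257A kidneys alone, and the median slope of the integrated stress response list was -0.018 by Lcn2 and -0.033 by the dedifferentiated tubule list, against 0.18. On counts simulated for the fit over all 12 kidneys, slopes of 0.25 were mostly missed (18 of 68 recovered). The number of kidneys and the range of Havcr1 were not varied there, so the reason was not tested. Each gene was drawn on its own, without the components that the real libraries share.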

Other observations

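Some other genes varied widely among the PolgD257A kidneys. They were chosen after their values were seen and no test was run. Fga, Fgb and Fgg, the 3 chains of fibrinogen, were lowest in PolgD257A replicate 3, at 2566, 471 and 2378 normalized counts, and lay between 7667 and 10765, 1521 and 2599, and 6206 and 9369 in the other 5. Pck1, the rate-limiting enzyme of gluconeogenesis, had 15899, 11611, 15348, 38747, 36324 and 50954 normalized counts in replicates 1 to 6. It was higher in replicates 4 to 6 than in replicates 1 to 3. Havcr1 was lowest in replicates 5 and 6 (25923 and 26493) but stood at 34450 in replicate 4.

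Aldh1a1 and Ddc fell along Havcr1, yet in Polg+/+ replicate 1, the kidney with the least Havcr1, they reached 1097 and 2592 normalized counts, above the highest sham kidney (196 and 1760). The peroxisomal and microsomal fatty acid enzymes Ehhadh and Cyp4a14 were likewise highest in that kidney among the Polg+/+ kidneys after B-IRI, at 32838 and 20049, against at most 24986 and 4871 in sham. For these 4 genes the kidney with the least Havcr1 therefore lay farthest above sham among the 6 Polg+/+ kidneys. They too were picked after their values were seen.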
